A study of Mus musculus with 20 samples.

Results

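The transport of sterols and lipoproteins in liver and brown adipose tissue of the mouse was followed through 8 genes: Scarb1, Apob, Lrp1, Npc1, Npc2, Osbp, Scp2 and Nr0b2. They were found by gene symbol in the annotation of the arrayed cDNA clones, among the clones that carry a single gene name. The search gave 15 clones of 15360, which were 6 of the 7680 clones on the first array design and 9 of the 7680 on the second. Each design held 5 of the 8 genes, and Lrp1 and Npc2 were on both. None of the 8 genes lies on chromosome 15, the chromosome of the Fob3b locus.

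RNA of the Fob3b line had been set against RNA of the F line on spotted cDNA arrays that read 2 dyes at once. As background, F mice were bred for high body fat. Fob3b mice are F mice in which the Fob3b obesity region comes from a lean line, so both lines share the F genome outside it. Liver was given as 2 pools of RNA per line, and brown adipose tissue (BAT), the heat-producing fat depot, also as 2. The labels give neither the number, age or sex of the animals in a pool nor a treatment, and do not say whether a liver pool and a BAT pool of the same number came from the same animals. On the first design each tissue had 4 arrays of Fob3b against F, a dye-swapped pair for each of 2 pool pairs. On the second, liver had the same 4 arrays, but BAT had 1 dye-swapped pair of pool 1 alone. The other liver arrays were 2 self-self arrays on the first design, and 2 arrays of crossed pools and 2 between pools of 1 line on the second.

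Cells take up cholesterol from lipoproteins at the plasma membrane, either whole particles that pass to the lysosome or cholesteryl ester alone. Cholesterol freed in the lysosome is handed out by a soluble and a membrane protein that work in sequence, and carriers in the cytosol take it on to other membranes. The liver packs cholesterol and triglyceride into new lipoproteins and turns cholesterol into bile acids, while brown fat takes up lipoprotein lipid as fuel.

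A value here is a log2 dye ratio per clone, centred on each array's median and turned so that a positive value means more signal from Fob3b than from F if red had been divided by green. The files do not state which dye was the numerator, so every sign in the comparison of the lines would turn if it was green. The base of the logarithm is not stated and was taken as 2. The ratios hold no level, so levels cannot be set between genes, and the tissue labels could not be checked by the presence of marker genes. In pooled tissue, fewer cells of a type and less RNA per cell cannot be told apart. Arrays of the first design spread more widely, with standard deviations over clones of 0.318 to 0.631, against 0.155 to 0.302 on the second. The correlation of a clone's 2 spots was 0.760 to 0.932 on the first and 0.636 to 0.865 on the second.

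Promoter sequence was available for 6 of the 8 genes in RefSeq's annotation of mouse build GRCm38.p6, and 2 promoters are shown. Npc2 is the gene with the highest BAT value on the first design, and Apob has the liver value that moved most between pool pairs there. Each stretch is the 250 bases before the transcription start on the gene's own strand, with the matches found on either strand in capitals. The Npc2 stretch is chr12:84773113-84773362 on the minus strand, and the Apob stretch is chr12:7977427-7977676 on the plus strand.

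Npc2: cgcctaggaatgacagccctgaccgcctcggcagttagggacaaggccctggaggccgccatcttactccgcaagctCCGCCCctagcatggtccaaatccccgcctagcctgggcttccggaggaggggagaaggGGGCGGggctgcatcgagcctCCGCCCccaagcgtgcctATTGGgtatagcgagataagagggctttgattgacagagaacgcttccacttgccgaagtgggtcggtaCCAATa

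Apob: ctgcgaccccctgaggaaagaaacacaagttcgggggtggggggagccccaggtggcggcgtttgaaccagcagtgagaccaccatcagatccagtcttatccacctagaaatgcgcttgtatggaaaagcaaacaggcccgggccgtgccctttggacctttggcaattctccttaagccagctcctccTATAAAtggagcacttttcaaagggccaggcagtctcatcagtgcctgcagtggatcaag

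The capitals mark 3 GC boxes (GGGCGG) and 2 CCAAT boxes (CCAAT) in Npc2, and 1 TATA box (TATAAA) in Apob. The same letters occur in 32.7%, 33.8% and 12.4% of 32851 promoters of that length. The E-box CACGTG, found in 6.02% of promoters, was in that of Nr0b2 alone among the 6. The sterol regulatory element core TCACCCCA, found in 1.34%, was in none of the 6. The other 4 promoters held GC boxes as well, 3 in Osbp and 1 each in Scp2, Nr0b2 and Lrp1. Osbp also had 5 CCAAT boxes, and Nr0b2 had a TATA box. A match describes the letters of these windows and is not a measured site.

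No clone of the 8 genes passed the test in any comparison. At an adjusted p under 0.05, limma called 0 of 7680 clones for liver on the first design (0%), 0 for BAT on the first design and 0 for liver minus BAT. It called 29 of 7680 for liver on the second design (0.378%), none of them a member. At an unadjusted p under 0.05 there were 253 clones (3.29%) for liver and 65 (0.846%) for BAT on the first design. There were 220 (2.86%) for liver minus BAT, and 768 (10%) for liver on the second design. On the first design the members had 1 clone of 6 at that level in liver (Scarb1) and 1 of 6 in BAT (Npc2). They had 1 of 6 in liver minus BAT (Scarb1) and 0 of 9 in liver on the second design. The values that follow are therefore a description of pools, and no member is said to differ between the lines.

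Scarb1 encodes SR-BI, the receptor that takes cholesteryl ester from high-density lipoprotein. In liver on the first design, its clone read -0.51 and -1.40 on the arrays of pool pair 1 with Fob3b in red and in green. On those of pool pair 2 it read -0.13 and -0.32. All 4 arrays were negative, and pool pair 1 lay farther from 0 than pool pair 2. The mean over pool pairs was -0.59 ± 0.23 (SE, n = 2, limma adjusted p = 0.99998), below all but 0.92% of clones. Each SE given here is limma's, from a variance moderated over all clones, and not the clone's own spread between pool pairs. A single sign on all 4 arrays was seen in 8.24% of all clones and in 1 of 6 member clones.

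In BAT the Scarb1 clone lay on the other side. It read 0.84 and 0.32 in pool pair 1 and 0.39 and -0.11 in pool pair 2, with Fob3b in red given before Fob3b in green. Only the array of pool pair 2 with Fob3b in green was negative. The BAT mean was 0.36 ± 0.23 (SE, n = 2, limma adjusted p = 0.99997), above 98.0% of clones. Liver minus BAT came to -0.95 ± 0.32 (SE, limma adjusted p = 0.9996). The labels do not pair liver with BAT pools, so no difference per pool is given. Without liver pool pair 2 this difference was -1.31, and without liver pool pair 1 it was -0.58. In any such fit the single liver pool pair left gives no spread of its own. The spread used is then that of the BAT pairs, moderated over all clones.

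By their channel labels, the 2 self-self arrays hold the same RNA in both channels. The description of the Fob3b one differs from its labels. Centred, and with red taken over green, they gave the Scarb1 clone -0.18 for Fob3b RNA and -0.56 for F RNA, the second of them below all but 2.88% of clones on its array. If the labels hold, such arrays have no difference between RNAs, so a value away from 0 is one of dye or of measurement. The liver mean holds each dye orientation equally often, and the liver readings split into a line part of -0.59 and a dye part of 0.27. This dye part is also red over green, and its sign was opposite to that of both self-self arrays. A dye difference that varies between arrays does not cancel in such a mean, and its part was not tested.

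**Figure D1:**
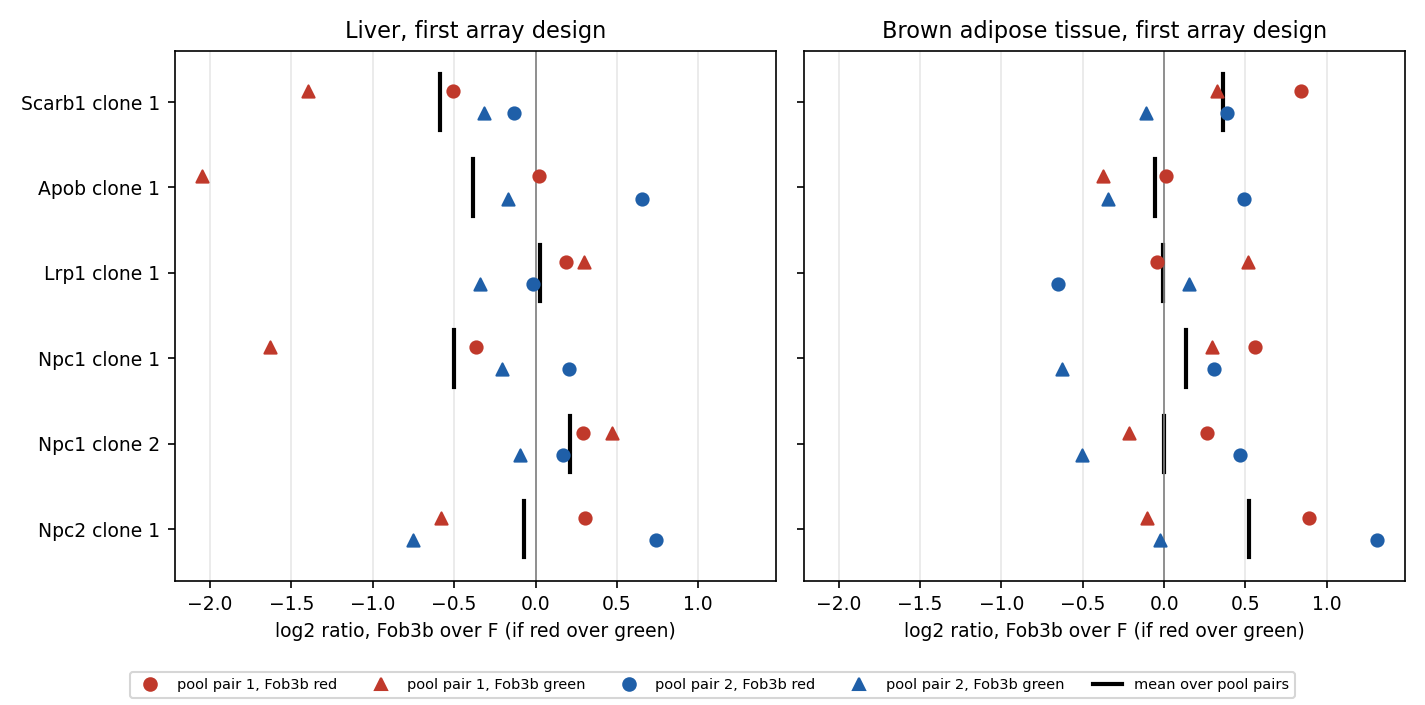
Log2 ratio of Fob3b over F (if red was divided by green) of the 6 member clones on each array of the first design, liver at left and BAT at right. Circles are arrays with Fob3b in red, triangles those with Fob3b in green, red and blue mark pool pairs 1 and 2, and black bars are means over pool pairs. Scarb1 lies below 0 on all 4 liver arrays, and the array of pool pair 1 with Fob3b in green holds the lowest liver values of Scarb1, Apob and the first Npc1 clone.

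Apob encodes apolipoprotein B, the structural protein of very-low-density lipoprotein and chylomicrons. Its liver readings were 0.02 and -2.05 in pool pair 1 and 0.65 and -0.17 in pool pair 2, Fob3b in red first. The value of -2.05 stood below all but 0.79% of clones on that array, and the other 3 arrays lay on either side of 0. The pool pairs gave -1.01 and 0.24, with an SD of 0.89 between them. The mean was -0.39 ± 0.27 (SE, n = 2, limma adjusted p = 0.99998). This moderated SE is smaller than the 2 liver pool pairs alone would give. Without pool pair 2 the Apob value was -1.01, from a single liver pool pair with no spread of its own. Without pool pair 1 it was 0.24, so the sign differed between the pool pairs.

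The self-self arrays read -0.42 for Fob3b RNA and -0.95 for F RNA at the Apob clone, and the F value lay below all but 0.26% of clones. The dye part of the Apob liver readings was 0.72, of the opposite sign. In BAT the 4 readings of Apob were 0.01, -0.38, 0.49 and -0.34 in the same order. Their sign followed the dye, being positive with Fob3b in red and negative with Fob3b in green. The BAT mean was -0.05 ± 0.27 (SE, n = 2).

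Lrp1 encodes a large receptor that takes remnant lipoproteins and many other ligands into the cell. It was measured by 3 clones. On the first design its clone read 0.19, 0.30, -0.02 and -0.34 in liver, and its mean was 0.03 ± 0.21 (SE, n = 2). In BAT it read -0.05, 0.51, -0.65 and 0.15, with a mean of -0.01 ± 0.21 (SE, n = 2). On the first design, neither tissue set Lrp1 to one side.

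The first Lrp1 clone of the second design read 0.33, -0.25, 0.28 and 0.09 in liver, with a mean of 0.12 ± 0.09 (SE, n = 2, adjusted p = 0.765). The second Lrp1 clone read 0.29, -0.46, 0.32 and -0.07, with a mean of 0.02 ± 0.09. Its sign followed the dye on all 4 arrays. In BAT on the second design the clones differed in sign, with 0.12 for the first and -0.15 for the second.

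Npc1 and Npc2 are the lysosomal pair. Npc2 is a soluble protein of the lysosome lumen that binds cholesterol and passes it to Npc1, a protein of the lysosomal membrane. Npc1 had 2 clones, both on the first design, and they did not move together in liver. The first read -0.36, -1.63, 0.21 and -0.20, with a mean of -0.997 in pool pair 1 and 0.00 in pool pair 2, and overall -0.50 ± 0.26 (SE, n = 2, limma adjusted p = 0.99998). The second read 0.29, 0.47, 0.17 and -0.09, with a mean of 0.21 ± 0.20. The gene's liver value therefore depends on the clone, and the average of both was -0.14.

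The first Npc1 clone resembled Scarb1 and Apob in 2 ways. Its lowest reading was on the same liver array, and its self-self arrays were negative, at -0.15 for Fob3b RNA and -0.48 for F RNA. The second clone read 0.07 and 0.29 on them. In liver the first clone's dye part was 0.42, opposite in sign to its self-self arrays. Without liver pool pair 2 the first Npc1 clone stood at -0.997, and without pool pair 1 at 0.00, each from a single liver pool pair. In BAT the first clone read 0.56, 0.29, 0.31 and -0.63, and the second 0.26, -0.21, 0.46 and -0.51. Each had readings on both sides of 0. The 2 clones averaged 0.13 ± 0.26 and 0.00 ± 0.20 (SE, n = 2 each).

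Npc2 had the highest BAT value among the members. On the first design its clone read 0.89 and -0.10 in BAT pool pair 1 and 1.31 and -0.02 in pool pair 2, Fob3b in red first. Both arrays with Fob3b in red were high, above 99.5% and 99.7% of clones, while both with Fob3b in green were near 0. The pool pairs gave 0.39 and 0.64, and the mean was 0.52 ± 0.19 (SE, n = 2, limma adjusted p = 0.99997), above 99.5% of clones. In this clone, 1.10 was the mean with Fob3b in red and -0.06 the mean with Fob3b in green, so the dye part was 0.58 and the line part 0.52.

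The second design measured Npc2 in BAT of pool 1 with 2 further clones. The descriptions of its 2 BAT slides name F against F, while their channel labels name Fob3b in one channel and F in the other. Every BAT sign and rank given for the second design rests on the channel labels, and with F RNA in both channels these values would not compare the lines. The first read 0.47 with Fob3b in red and 0.34 with Fob3b in green, and the second read 0.23 and 0.40. All 4 readings were positive in either dye. The means of 0.40 and 0.32 stood above 97.8% and 95.3% of clones. With no centring of the arrays, the second clone's mean was -0.04 and the first's 0.05. The design has a single BAT pool pair, so these values have no test, and the label is pool 1 on both designs, so they are not a further pair of pools. A single sign on both arrays was seen in 62.0% of all clones and in 6 of 9 member clones.

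In liver the Npc2 values were near 0 on both designs. On the first design the clone read 0.31, -0.58, 0.74 and -0.75, with the sign again following the dye, and averaged -0.07 ± 0.19 (SE, n = 2). On the second the clones read -0.13, -0.01, 0.19 and -0.13, and 0.14, -0.11, -0.09 and 0.07. Their means were -0.02 ± 0.08 and 0.00 ± 0.08 (SE, n = 2 each; adjusted p = 0.964 and 0.993). Liver minus BAT on the first design was -0.59 ± 0.27 (SE, limma adjusted p = 0.9996). Over all the alternatives run, the Npc2 value in BAT on the first design stayed between 0.19 and 0.85.

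**Figure D2:**
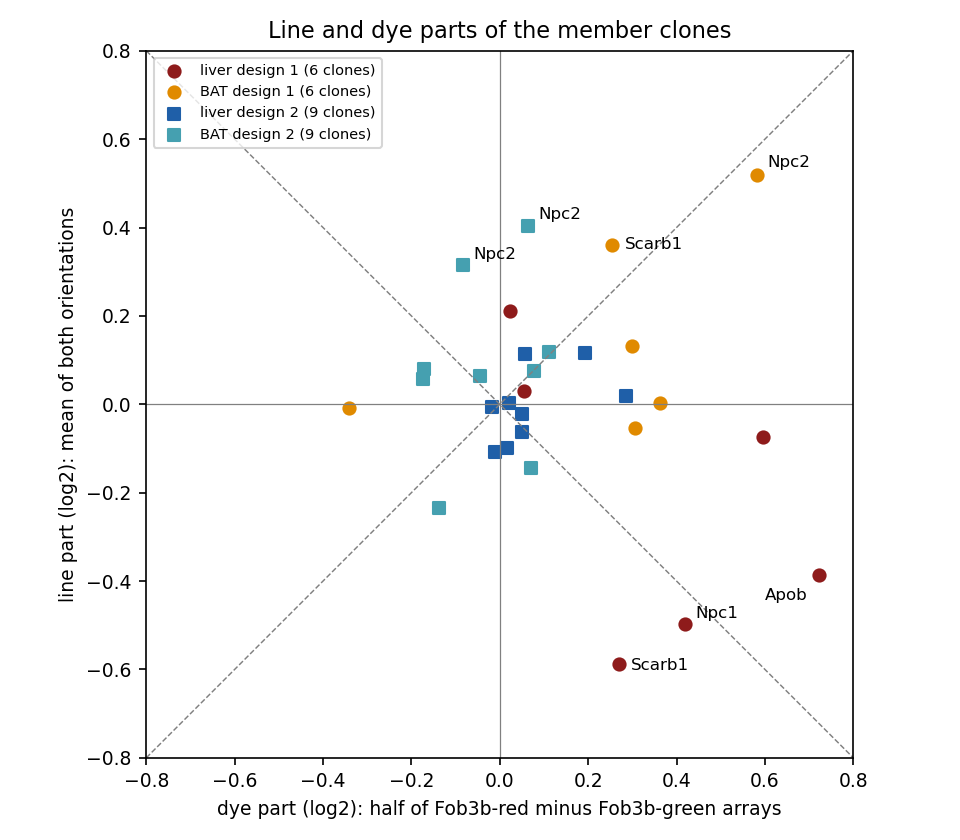
Line part (mean of both dye orientations) against dye part (the gap, divided by 2, between arrays with Fob3b in red and in green), in log2, for every member clone in 4 comparisons, with dashed lines where both are equal in size. Npc2 in BAT lies close to a dashed line on the first design (0.52 and 0.58) and far above the lines on the second, where dye parts were 0.06 and -0.08.

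Readings of the first design often differed more by dye orientation than by line. In BAT the dye part exceeded the line part in 5 of 6 member clones, beside 73.8% of all clones, and in liver in 3 of 6, beside 62.6%. On the second design it did so in 5 of 9 in liver, beside 46.5%, and in 3 of 9 in BAT, beside 38.0%. In BAT on the first design 5.85% of clones kept a single sign on all 4 arrays, and none of the 6 members did.

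Osbp encodes the oxysterol-binding protein, which moves cholesterol from the endoplasmic reticulum to the Golgi in exchange for a phosphoinositide. Its clone, on the second design alone, read 0.09, 0.03, 0.25 and 0.09 in liver. It was the only member clone of 9 with a single sign on all 4 liver arrays, which 19.0% of all clones had. The mean was 0.11 ± 0.08 (SE, n = 2, limma adjusted p = 0.770). The 2 crossed-pool arrays, in which Fob3b of one pool met F of the other, averaged -0.08, on the other side of 0. In BAT the 2 arrays read 0.15 and 0.00.

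Scp2 encodes sterol carrier protein, with a peroxisomal thiolase form used in bile acid side-chain shortening. It was measured by 3 clones on the second design. In liver pool pair 1 they gave -0.21, -0.24 and -0.21, and in pool pair 2 they gave 0.19, 0.02 and 0.01. The 3 clones thus had 1 sign within a pool pair, and the opposite sign in the other. By array the first clone read -0.15, -0.26, 0.11 and 0.28, the second -0.16, -0.32, -0.08 and 0.13, and the third -0.20, -0.22, 0.03 and -0.01. The means were -0.01 ± 0.11, -0.11 ± 0.09 and -0.10 ± 0.09 (SE, n = 2 each; limma adjusted p = 0.800 to 0.993).

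The arrays that set pool 2 over pool 1 of a single line bear on the spread between pools. For Scp2 they gave -0.11, -0.07 and -0.30 in the Fob3b line, and -0.23, -0.36 and -0.24 in the F line. All 6 values were negative. Pool 2 was in red on both arrays, so pool and dye cannot be told apart there. In BAT the Scp2 clones gave 0.06, 0.08 and 0.06. The 3 clones come from 1 gene and share RNA and arrays, so they are not replicates.

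Nr0b2 encodes SHP, a nuclear receptor without a DNA-binding domain that represses bile acid synthesis in liver. Its liver readings were 0.16, -0.08, -0.18 and -0.14, with a mean of -0.06 ± 0.09 (SE, n = 2, limma adjusted p = 0.901). The crossed-pool arrays read 0.31 with Fob3b in red and 0.11 with Fob3b in green, a mean of 0.21 and the largest gap to the direct arrays among the 9 member clones. The between-pool arrays differed in sign for Nr0b2, at -0.17 in the Fob3b line and 0.32 in the F line. In BAT its clone read -0.37 and -0.10, with a mean of -0.24, the lowest of the members there if the channel labels hold.

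Across the second design, 3 of 9 member clones (33.3%) had the same sign in the direct and the crossed-pool liver arrays, beside 50% of all clones. Both means hold the same pools in equal weight, so a gap between them is not a difference between pools. The source of the gaps was not tested. Over all 7680 clones the 2 liver means correlated with r = 0.12 (Spearman 0.045) across clones that share arrays, pools and dyes. The other crossed-pool means were 0.07 and 0.01 for Lrp1, 0.05 and 0.04 for Npc2, and 0.10, 0.03 and 0.04 for Scp2.

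**Figure D3:**
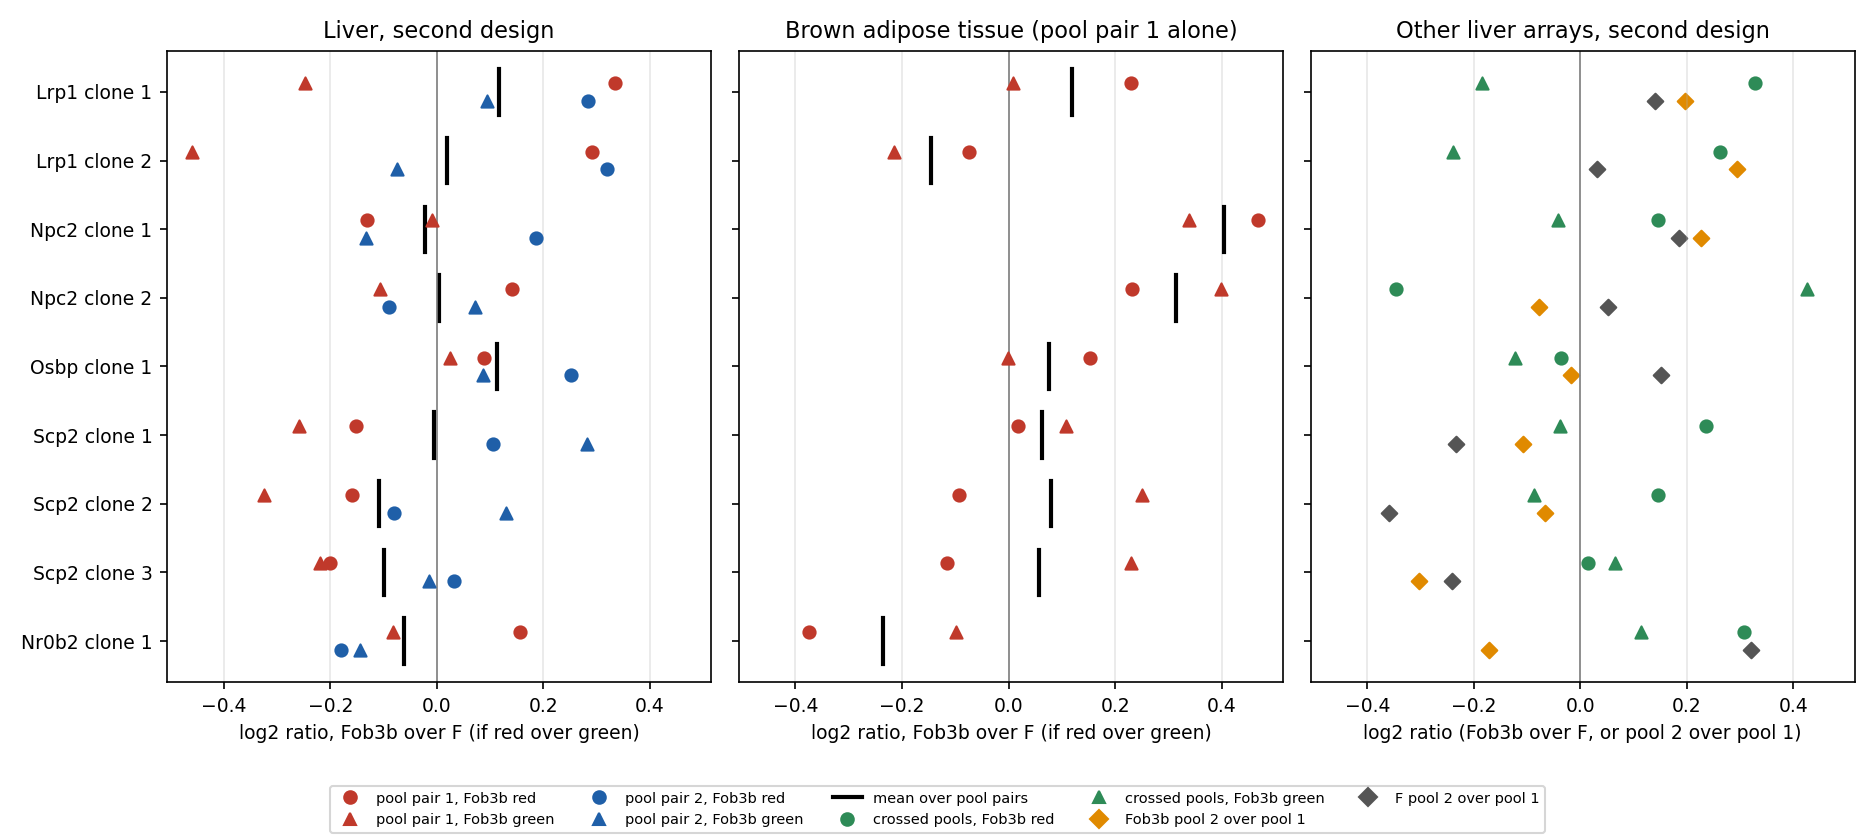
Log2 ratios of the 9 member clones on the second design, with liver at left, the single BAT pool pair in the middle, and the crossed-pool and between-pool liver arrays at right. Circles and triangles mark Fob3b in red and in green, diamonds are pool 2 over pool 1 within a line, and black bars are means. Both Npc2 clones lie above 0 on both BAT arrays, at 0.23 to 0.47, and all 6 diamonds of Scp2 lie below 0.

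The medians of the member clones were set beside those of all clones. The members' median in liver on the first design was -0.23, with 2 of 6 positive, and that of all clones was -0.02, with 45.8% positive. In BAT on the first design it was 0.07 for the members and 0.03 for all clones. Liver minus BAT had a median of -0.46 over the members and -0.06 over all clones. On the second design the medians were -0.01 for the members and 0.00 for all clones in liver, and 0.08 and 0.00 in BAT.

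The neighbouring pathways were followed through 5 lists of 144 genes in all: lipoprotein receptors and uptake, apolipoproteins and lipoprotein assembly, intracellular sterol transport, bile acids, and sterol sensing. The first design measured 30 of these genes by 34 clones and the second 32 by 38 clones. None of the clones passed limma's test in liver, BAT or liver minus BAT on the first design, or in liver on the second. In liver on the first design 7 genes were positive and 23 negative with a median of -0.12, where all 3838 genes had a median of -0.02 and 44.9% positive. In BAT on the first design 16 were positive and 14 negative, with a median of 0.04. Liver on the second design had 16 positive and 16 negative with a median of 0.00, and BAT had 18 and 14 with a median of 0.02.

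Among the apolipoproteins and assembly genes on the first design, all 4 measured had negative means in liver. The means were -0.36 for Mttp, which loads lipid onto apolipoprotein B, and -0.34 for Apoa4. Apoa1, the main protein of high-density lipoprotein, was at -0.17, and Lpl, lipoprotein lipase, at -0.12. Between pool pairs 1 and 2 the sign differed for Mttp (-0.94 and 0.22), Apoa1 (-0.65 and 0.31) and Lpl (-0.35 and 0.10). Apoa4 was negative in both (-0.63 and -0.06). On the second design 5 others were measured in liver, from -0.20 for Gpihbp1, the endothelial anchor of Lpl, to 0.27 for P4hb, the shared subunit of the microsomal transfer protein. Apoc2, the activator of Lpl, stood at -0.14 in liver and -0.28 in BAT on that design.

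The receptor list lay from -0.17 (Vldlr) to 0.06 (Sdc1) in liver on the first design. Lrp2, a relative of Lrp1, was at -0.11 in liver and -0.25 in BAT there, and at -0.17 and -0.24 on the second design. Pdzk1, the scaffold that holds Scarb1 at the hepatocyte surface, stood at -0.13 in liver and -0.17 in BAT on the first design, and at 0.09 and 0.08 on the second. Its means thus did not share the opposite signs of Scarb1 in the 2 tissues. On the first design, though, Pdzk1 differed in sign between pool pairs 1 and 2. It stood at -0.74 and 0.48 in liver, and at 0.15 and -0.50 in BAT.

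In the list of intracellular sterol transport, 10 of 13 genes were negative in liver and 10 of 13 positive in BAT on the first design, where 59.3% of all genes were positive in BAT. The second design measured 12 genes of this list, of which 7 were positive in liver and 5 in BAT. On the first design the relatives of Osbp ran from -0.26 for Osbpl9 to 0.38 for Osbpl2 in liver. Osbpl2 was positive on all 4 liver arrays of that design. Tmem97, a protein that binds Npc1, was the lowest gene of the lists in BAT on the second design at -0.52, negative on both arrays as the channel labels orient them, and stood at -0.06 in liver.

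Bile acid genes had negative liver means on the first design in 5 of 5. They ran from -0.53 for Hsd17b4 to -0.09 for Nr5a2, a nuclear receptor that Nr0b2 represses. Between pool pairs 1 and 2 the sign differed for Abcc3 (-0.37 and 0.03), Cyp7b1 (-0.32 and 0.07) and Nr5a2 (-0.22 and 0.04). Hsd17b4 and Atp8b1 were negative in both. On the second design 3 of 4 were positive in liver, with a median of 0.04, and Nr5a2 stood at 0.07. Hsd17b4 is the peroxisomal enzyme that acts before Scp2 in side-chain shortening. On the first design it was negative on all 4 liver arrays and positive on all 4 BAT arrays, with a BAT mean of 0.33. The second design had Hsd17b4 at -0.26 in liver, negative on all 4 arrays. In BAT it was at 0.10 there, positive on only 1 of the 2 arrays as the channel labels orient them. Cyp7b1, an oxysterol hydroxylase, averaged -0.12 in liver and 0.15 in BAT on the first design. Of the sterol sensing genes, Srebf1, a transcription factor of lipid synthesis, was at -0.03 in liver and 0.36 in BAT on the second design, and Nr1h3, an oxysterol receptor, at -0.05 in liver on the first.

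**Figure D4:**
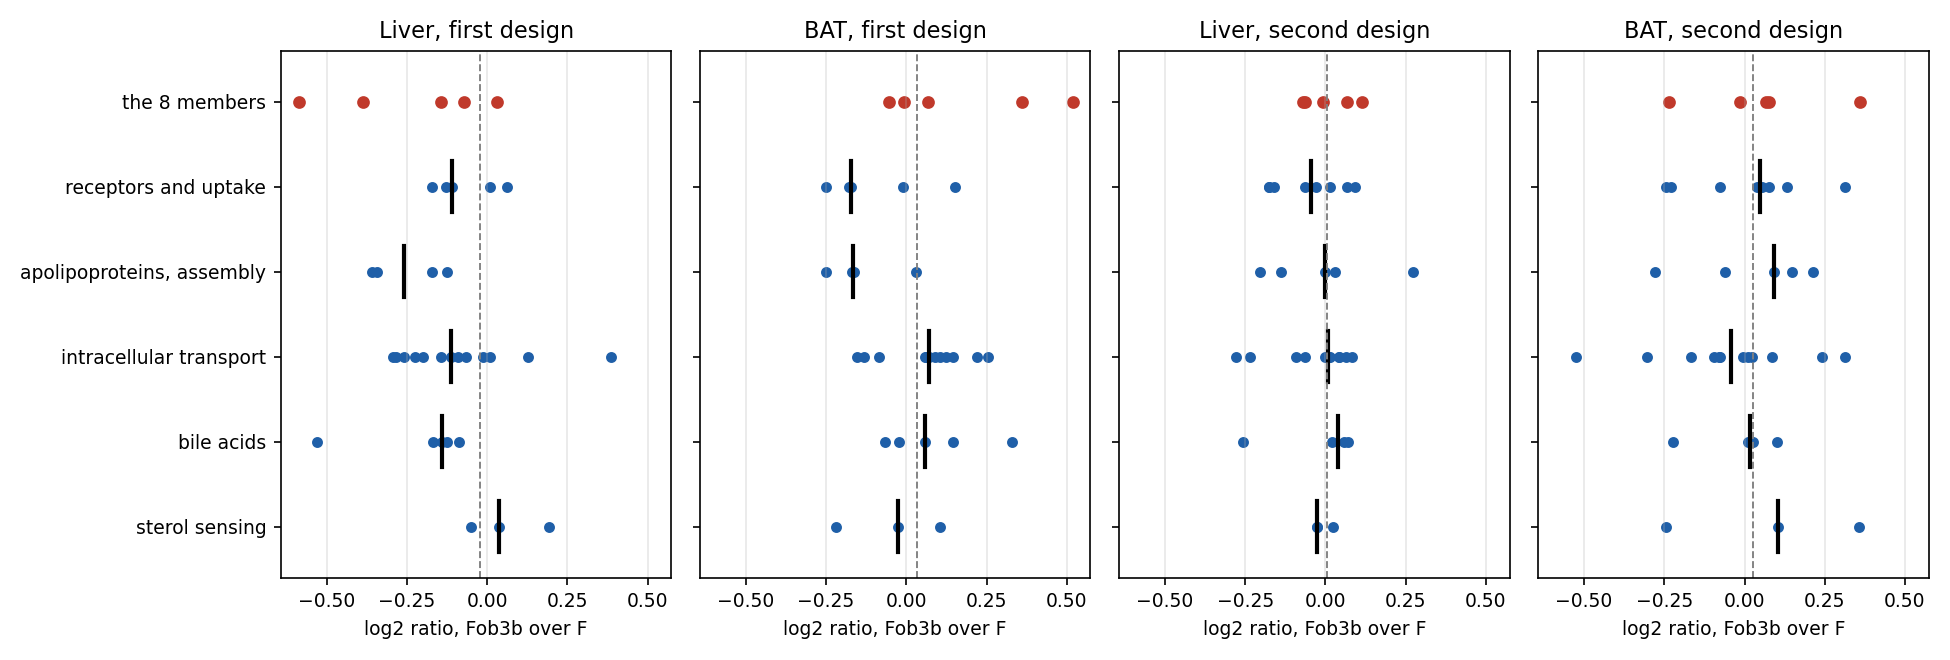
Mean log2 ratio of Fob3b over F (if red was divided by green) of each measured gene, by list, in liver and BAT of the 2 designs, with members in red, pathway genes in blue, a black bar at each list's median and a dashed line at the median of all genes. Pathway genes lie on both sides of the dashed line in each panel. In liver on the first design, though, 23 of 30 were negative. All 4 apolipoprotein and assembly genes and all 5 bile acid genes lie below the line there. No clone of a pathway gene passed the test in the 3 panels that have one.

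Markers of cell types were few on these arrays. In liver on the first design 3 of 10 hepatocyte markers were measured, and all were negative: Alb at -0.74, Apoa1 at -0.17 and Ttr at -0.15. Their means lay on the same side as those of Scarb1 and Apob. Alb was negative in both pool pairs. Apoa1 (-0.65 and 0.31) and Ttr (-0.47 and 0.16) differed in sign between pool pairs 1 and 2. In BAT on that design the 3 were also negative, at -0.05, -0.17 and -0.16, where the Scarb1 mean was positive. In liver the single macrophage marker of 9, Lyz2, was at -0.44, and the single endothelial one of 6, Cdh5, at 0.64. Of 4 cholangiocyte markers, the first design measured Krt19, at 0.50 in liver and -0.50 in BAT, and Krt7, at 0.08 and 0.06. The single adipocyte marker of 8, Lpl, was at -0.12 in liver and -0.25 in BAT there. On the second design the red blood cell markers Hbb-b1 and Alas2, 2 of 4, were at -0.23 and -0.06 in liver. In BAT the 2 of 13 skeletal muscle markers on the first design were at -0.47 (Actn3) and -0.58 (Tpm2), on the side opposite to Npc2. Tpm2 was the single muscle marker on the second design and was at 0.73 in BAT pool pair 1, on the same side as Npc2, where the first design had it at -0.89 in the pool pair of that number. The brown adipocyte markers Elovl3 and Prdm16, 2 of 8, were at -0.06 and -0.15 in BAT on the second design. The part of cell makeup in the member values was not tested.

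For each design, the member clone farthest from 0 on average over the arrays of Fob3b against F was compared with all clones of a single gene by the root mean square of the difference. On the first design this was Npc2, and the 3 most alike over 8 arrays were Idh3a at 0.274, Fbxl20 at 0.281 and Ccnd3 at 0.292, where the median clone was at 0.792. Ccnd3 had been printed in the same block of the array as Npc2. On the second it was the second Lrp1 clone, and the 3 most alike over 6 arrays were Rps9 at 0.0674, Sec24c at 0.0728 and Fam193a at 0.0775, against a median of 0.331. Rps9 lay in the same block as that Lrp1 clone.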

How the data were processed

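The authors deposited, per the file headers, log ratios of 2 dyes for each spot, treated here as log2. How the arrays were labelled, scanned and normalized before deposition was not given in the sources used here. Each design had 17280 spots in 48 blocks, and its 1920 control spots were left out. The median over an array's clone spots was subtracted from all its values, a clone's 2 spots were averaged, and each dye-swapped pair of arrays was averaged too, so n was 2 pool pairs per tissue. The fit was made in limma 3.58.1 (R 4.3.3) over both tissues of a design, with moderated variances, two-sided tests and Benjamini-Hochberg adjustment over all 7680 clones at 0.05. P-values measure the spread between pool pairs, not animals, and the number of arrays limits the precision. The fit was tested on simulated data.

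Where a slide's description and its channel labels differed (the BAT pair of the second design and the Fob3b self-self array), the channel labels were used. All member clones, every measured pathway gene, and the 3 clones most like a member could be named. The members and lists were chosen with earlier results of these data known. Alternatives covered centring, scaling, spots, gene averages, single arrays and pools left out, and a pool-number block. No member or clone is placed on a genome build by the files.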

Additional observations from a re-analysis of the deposited data

How the results depend on the processing

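Counts of called clones at an adjusted p under 0.05 depended on the processing, and no cause was tested. A tissue with a pool pair left out had a single pool pair and no spread of its own. For BAT on the first design the count of 0 became 1 with no centring and 4 with the tissue fitted alone, and 0 to 1 with a pool pair or array left out. For liver on that design, leaving out a pool pair or array gave 0 to 140, and for liver minus BAT 0 to 95. The upper ends came from leaving out liver pool pair 2, where the member clones Apob and the first Npc1 clone were called in liver and Scarb1 in liver minus BAT. Leaving out liver pool pair 1 gave 42 clones in liver and 13 in liver minus BAT. For liver on the second design the 29 calls became 159 with no centring, 75 with the second spot only, 7 with clones averaged per gene and 2 with every array as its own replicate. They became 0 with each block centred, with arrays scaled, with the first spot only and with the crossed-pool arrays added, and 0 to 202 with an array left out. Leaving out a pool pair there left no residual degrees of freedom, so it gives values with no test.

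The 36 values of member clones had 504 alternatives. The sign changed in 82 of them, and 3 were called. The value moved by more than 1 SD between pool pairs in 55, and, in BAT on the second design, by more than 1 SD between the 2 dye-swapped arrays in 11. A single sign held throughout in 9 values: Scarb1 in liver, BAT and their difference, the first Npc1 clone in liver minus BAT, Npc2 on the first design in BAT and liver minus BAT, and, in BAT on the second design, the first Npc2 clone, the second Lrp1 clone and Nr0b2. With no centring, the median of all clones was -0.11 in liver and 0.30 in BAT on the first design, and -0.37 and -0.36 on the second. A replicate block on the pool number gave 0 calls for liver minus BAT. The labels do not pair liver with BAT pools, and the deviations of their pools of the same number correlated with r = 0.38 over 7680 clones.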
